A study of Homo sapiens with 4 samples.

Results

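The outer kinetochore and the spindle checkpoint were described through 30 genes, chosen by symbol from 8 subcomplexes, out of 58870 genes listed for each library. All 30 passed the filter on low counts, which left 16749 genes tested. The cells were BJ, a line of human skin fibroblasts. In 2 libraries they had received 250 nM of an agent that the labels abbreviate as Dox, and in 2 libraries DMSO, the solvent. By the series design, 24 hours of exposure preceded 10 days of senescence, whereas the samples' treatment protocol can also be read in the reverse order, so the time from Dox to harvest is uncertain. The sample titles call the Dox cells aged and the DMSO cells young. No other treatment or allele is named for either group, and the sample labels do not say whether the 2 replicates of a group are independent cultures. The p-values therefore reflect the spread of these libraries, which may be technical. The series title is about centromeres that lose activity in ageing, and the design sets Dox against DMSO.

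The kinetochore is the protein assembly that ties a chromosome's centromere to spindle microtubules in mitosis. Its outer layer holds the Knl1, Mis12 and Ndc80 complexes, of which Ndc80 grips the microtubule, Mis12 joins it to the centromere and Knl1 gathers checkpoint proteins. The Ska complex steadies the grip, and a fibrous corona of the RZZ complex, Spindly, CENP-E and CENP-F covers kinetochores that have no microtubules yet. From such kinetochores the checkpoint proteins of the Mad and Bub families send the signal that delays anaphase, while the chromosomal passenger complex, built around Aurora B kinase, releases wrong attachments. Many of these genes are transcribed mainly in G2 and mitosis.

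In the Dox libraries 20 of the 30 genes were lower than in the DMSO libraries and 0 were higher, at a Benjamini-Hochberg adjusted p under 0.05 in the quasi-likelihood test of edgeR, adjusted over all tested genes. Over all tested genes 13.8% were lower and 16.5% were higher. By limma the 20 lower genes became 9 on log2(TPM + 1) and 6 on log2(TPM + 0.1), with 0 higher on both. Neither of these fits scaled TPM between libraries. With TPM rescaled by library before log2(TPM + 0.1), a fit added after seeing the data, 15 were lower and 0 higher. The fall reached at least 2-fold in 13 genes, which came from the Ndc80, Knl1 and Ska complexes, the checkpoint kinases, shugoshin and the passenger complex. The 4 genes of the RZZ complex and Spindly, the checkpoint partners BUB3 and MAD1L1, the motor CENPE, the Mis12 subunit DSN1, the passenger scaffold INCENP and the low-count SPC25 did not pass. Both Dox libraries lay below both DMSO libraries in 25 of the 30 genes by TMM-scaled CPM (counts scaled to library size), an ordering found in 34.5% of all tested genes. The median log2 fold change, Dox over DMSO, was -0.97 over the 30 genes and -0.002 over all tested genes. In bulk RNA, fewer cells in mitosis and less RNA per cell cannot be told apart.

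**Figure D1:**
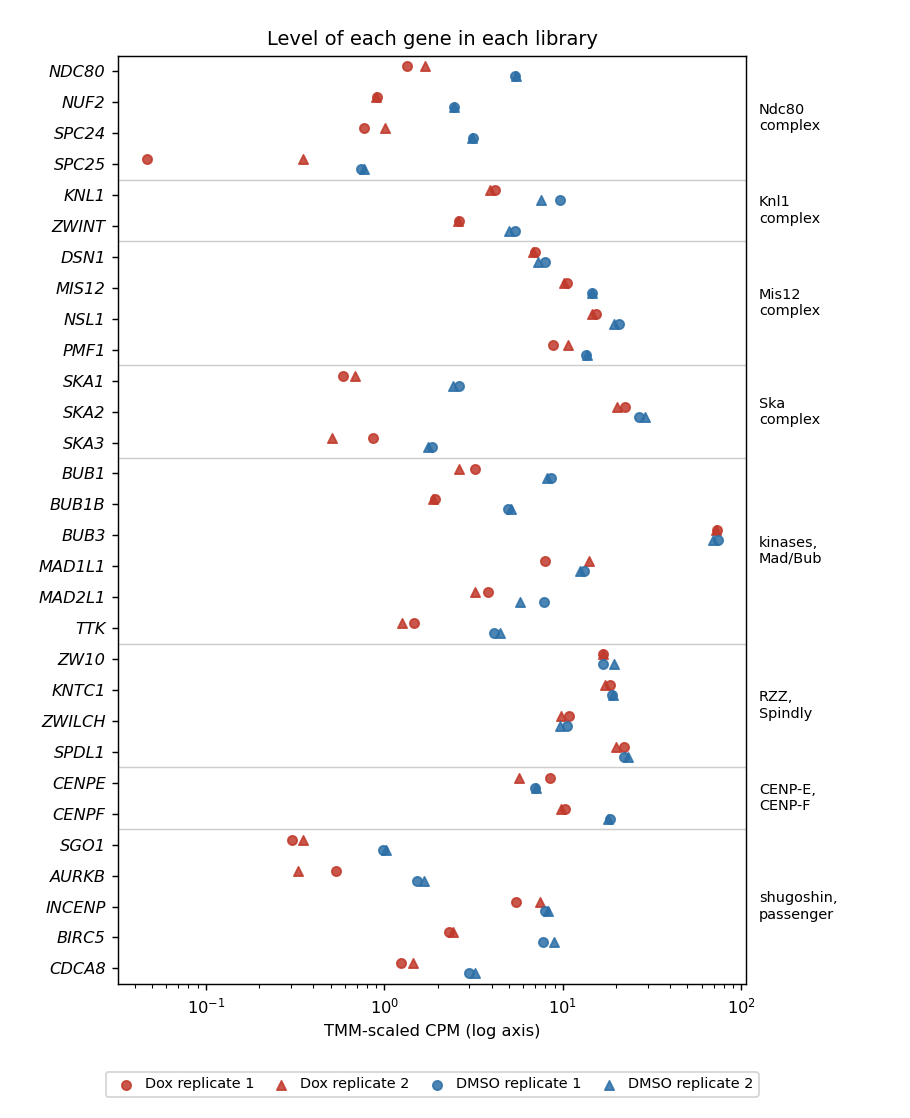
Level of each of the 30 genes in each library, as TMM-scaled CPM on a log axis, with Dox libraries in red above DMSO libraries in blue and circles and triangles for replicates 1 and 2. BUB3 lay near 72 CPM in both groups, whereas the subunits of Ndc80 and the passenger genes BIRC5, AURKB and CDCA8 lay lower in both Dox libraries than in both DMSO libraries.

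Promoter sequence is a property the choice of genes did not use. The motif TTTGAA, known as the CHR element and bound by the DREAM and MuvB complexes in cell cycle genes, was searched on both strands of RefSeq windows (GRCh38.p14) around each gene's start. Of 25 genes with a window, 13 (52.0%) held TTTGAA, against 18.2% of 27305 genes with a window. Those 27305 genes were not limited to the tested genes. A gene counted as holding a motif if any of its windows did, and the genes had 35116 windows in all. The CCAAT box, a site for the factor NF-Y, stood in 16 (64.0%) against 39.7% of genes, and an E2F motif spelled TTCCCGC or TTGGCGC in 7 (28.0%) against 11.0%. Read on the other strand CCAAT is ATTGG, which can share letters with TTGGCGC, and a match is a description, not a site. Among the genes that fell, 9 of 17 with a window held TTTGAA, 11 held CCAAT and 4 held the E2F motif. Among those that did not pass, 4 of 8 held TTTGAA, 5 held CCAAT and 3 held the E2F motif. The 8 genes below had TTTGAA, or TTCAAA where it lies on the other strand, wholly between 60 bases upstream and 20 bases downstream of the annotated start. They are shown because the element recurs in this short stretch in genes that fell by different amounts and in genes that did not pass. Each line gives those 80 bases on the gene's own strand with the motif in capitals.
NDC80, chr18:2571497-2571576, plus strand: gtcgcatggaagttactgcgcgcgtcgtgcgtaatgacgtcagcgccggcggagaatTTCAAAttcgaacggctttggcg
SKA3, chr13:21176533-21176612, minus strand: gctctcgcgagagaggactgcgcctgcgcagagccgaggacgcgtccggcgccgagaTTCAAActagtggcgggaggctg
BUB1B, chr15:40161009-40161088, plus strand: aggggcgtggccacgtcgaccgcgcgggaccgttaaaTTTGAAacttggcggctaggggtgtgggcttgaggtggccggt
CDCA8, chr1:37692456-37692535, plus strand: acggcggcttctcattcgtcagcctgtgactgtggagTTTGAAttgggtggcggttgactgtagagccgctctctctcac
ZWINT, chr10:56361240-56361319, minus strand: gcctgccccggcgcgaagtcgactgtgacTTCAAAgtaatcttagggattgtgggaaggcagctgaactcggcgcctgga
SPC25, chr2:168890411-168890490, minus strand: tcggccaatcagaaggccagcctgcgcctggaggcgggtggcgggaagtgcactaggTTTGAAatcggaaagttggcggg
INCENP, chr11:62123951-62124030, plus strand: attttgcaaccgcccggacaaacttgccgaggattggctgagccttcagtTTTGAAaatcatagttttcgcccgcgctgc
SPDL1, chr5:169583713-169583792, plus strand: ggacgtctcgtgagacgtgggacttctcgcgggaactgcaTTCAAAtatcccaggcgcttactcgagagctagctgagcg
Of these 8 genes, NDC80, SKA3, BUB1B, CDCA8 and ZWINT fell, while SPC25, INCENP and SPDL1 did not pass. SPC25 missed the threshold at a log2 fold change of -1.88 with 2 to 36 counts a library, and all 3 passed as lower in some alternative fits. The same element stood near the start of genes on either side of the threshold, but its relation to the fall was not tested.

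The Ndc80 complex is the microtubule-binding rod of the kinetochore, and 3 of its 4 genes fell in the Dox libraries. NDC80 (ENSG00000080986.13, chr18:2571511-2616635, GENCODE 29, GRCh38), which carries the head that touches the microtubule, had 57 and 77 expected counts in Dox libraries, against 226 and 258 in DMSO libraries. Both Dox libraries lay far below both DMSO libraries, and the mean was 1.52 ± 0.258 CPM in Dox and 5.46 ± 0.0621 CPM in DMSO (SD, n = 2 each). The log2 fold change was -1.85 (SE 0.17, adjusted p = 0.00089 by edgeR), or 3.59-fold lower. NUF2, its dimer partner, had 39 and 41 counts in Dox libraries, against 102 and 115 in DMSO libraries. Its log2 fold change was -1.43 (SE 0.18, edgeR adjusted p = 0.00275). SPC24, part of the dimer that docks on the centromere side, had 33 and 46 counts in Dox libraries, against 132 and 146 in DMSO libraries, and changed by -1.81 on the log2 scale (SE 0.20, edgeR adjusted p = 0.00159).

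SPC25, the partner of SPC24, had 2 and 16 counts in Dox libraries, against 31 and 36 in DMSO libraries. The Dox libraries were both lower than the DMSO libraries but differed from each other more than for any other of the 30 genes. Its log2 fold change of -1.88 had an SE of 0.61 and an edgeR adjusted p of 0.0621, so SPC25 did not pass. Without Dox replicate 1 the value was -1.11 and without Dox replicate 2 it was -3.94. Each of these fits left 1 Dox library, so the spread came from the DMSO pair alone. Over alternatives with all 4 libraries its adjusted p ran from 0.000378 (edgeR with replicate block and GC offsets) to 0.240 (glmTreat at 1.5-fold).

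The Knl1 complex consists of KNL1, whose repeats are phosphorylated to recruit the Bub proteins, and ZWINT, its partner, which links it to the RZZ complex. Both fell. KNL1 (ENSG00000137812.19, chr15:40594020-40664342) had 179 and 177 counts in Dox libraries, against 404 and 355 in DMSO libraries. ZWINT (ENSG00000122952.17) had 112 and 118 counts in Dox libraries, against 226 and 235 in DMSO libraries. In both genes the Dox libraries stood close together and below the DMSO libraries. The log2 fold change was -1.09 for KNL1 (SE 0.16, edgeR adjusted p = 0.00437) and -1.0 for ZWINT (SE 0.14, edgeR adjusted p = 0.00409).

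The Mis12 complex is the platform between the inner and the outer kinetochore, and 3 of its 4 genes fell, each by under 2-fold. MIS12 (ENSG00000167842.15, chr17:5486285-5490814) had 452 and 461 counts in Dox libraries, against 611 and 686 in DMSO libraries, a log2 fold change of -0.50 (SE 0.09, edgeR adjusted p = 0.00949). PMF1, the subunit also known as NNF1, had 376 and 486 counts in Dox libraries, against 564 and 645 in DMSO libraries, a log2 fold change of -0.48 (SE 0.12, edgeR adjusted p = 0.0277). NSL1, another subunit, had 661 and 666 counts in Dox libraries, against 863 and 905 in DMSO libraries, and changed by -0.41 (SE 0.09, edgeR adjusted p = 0.0185). In these genes both Dox libraries lay below both DMSO libraries. DSN1, the subunit that Aurora B phosphorylates to strengthen binding to the inner kinetochore, had 301 and 311 counts in Dox libraries, against 331 and 341 in DMSO libraries. Its groups did not overlap, but the difference of -0.13 on the log2 scale was near its SE of 0.12 and did not pass (edgeR adjusted p = 0.436).

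The Mis12 calls rested on having both DMSO libraries. Without DMSO replicate 1 the log2 fold change was -0.51 for MIS12, -0.37 for NSL1 and -0.51 for PMF1, and without DMSO replicate 2 it was -0.50, -0.46 and -0.48 in the same order of genes. In these fits the spread came from the Dox pair alone, and the calls were lost at fold changes near those of the full fit. Over alternatives with all 4 libraries the highest adjusted p of each was 1.00. The lowest, by edgeR with replicate block and GC offsets, ran from 7.06e-07 for MIS12 to 3.58e-06 for PMF1.

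The Ska complex binds microtubules beside Ndc80, and all 3 of its genes fell, by unequal amounts. SKA1 (ENSG00000154839.10, chr18:50374995-50394173), which holds the microtubule-binding domain, had 25 and 31 counts in Dox libraries, against 110 and 114 in DMSO libraries. At -1.99 on the log2 scale (SE 0.21, edgeR adjusted p = 0.00121), or 3.97-fold lower, this was the lowest fold change of the 30 genes. SKA3, which extends the complex towards Ndc80, changed by -1.39 (SE 0.28, edgeR adjusted p = 0.0133). SKA2, the small subunit that bridges the other two, had 950 and 909 counts in Dox libraries, against 1118 and 1357 in DMSO libraries. Its log2 fold change was -0.40 (SE 0.09, edgeR adjusted p = 0.0227). It did not pass without DMSO replicate 1 (-0.47) or without DMSO replicate 2 (-0.35), where the spread came from the Dox pair alone. Over alternatives with all 4 libraries the adjusted p ran from 2.53e-07 (edgeR with replicate block and GC offsets) to 1.00.

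Of the 6 checkpoint kinases and Mad and Bub genes, the 3 kinase-family genes and MAD2L1 fell, while BUB3 and MAD1L1 did not pass. BUB1 (ENSG00000169679.14, chr2:110637698-110678114), the kinase that marks centromeric histone H2A for shugoshin, had 138 and 119 counts in Dox libraries, against 357 and 385 in DMSO libraries. Its mean was 2.93 ± 0.427 CPM in Dox and 8.38 ± 0.242 CPM in DMSO (SD, n = 2 each), a log2 fold change of -1.52 (SE 0.15, edgeR adjusted p = 0.00103). BUB1B, which encodes BubR1, a part of the checkpoint complex that restrains anaphase, had 82 and 85 counts in Dox libraries, against 206 and 240 in DMSO libraries. It changed by -1.41 (SE 0.15, edgeR adjusted p = 0.00126). TTK, also called MPS1, the kinase that starts the checkpoint by phosphorylating KNL1, changed by -1.64 (SE 0.17, edgeR adjusted p = 0.00124). In all 3 genes the Dox libraries were well below the DMSO libraries.

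MAD2L1 encodes MAD2, the protein that blocks the anaphase activator CDC20. It had 163 and 147 counts in Dox libraries, against 329 and 269 in DMSO libraries, and changed by -0.95 (SE 0.20, edgeR adjusted p = 0.0143). The groups did not overlap, but without DMSO replicate 1 the value was -0.71 and did not pass, with the spread taken from the Dox pair alone. Over alternatives with all 4 libraries the adjusted p ran from 1.86e-07 (edgeR with replicate block and GC offsets) to 0.548 (limma on log2(TPM + 0.1)). BUB3, the adaptor that carries both BUB1 and BubR1 to the kinetochore, had 3133 and 3292 counts in Dox libraries, against 3080 and 3273 in DMSO libraries. The 4 libraries overlapped, and the difference of 0.02 (SE 0.07) did not pass (edgeR adjusted p = 0.841). MAD1L1 encodes MAD1, the template that converts MAD2 to its active form. It had 341 and 637 counts in Dox libraries, against 548 and 585 in DMSO libraries, so the Dox libraries lay on either side of the DMSO libraries and no call was made (-0.22, SE 0.24, edgeR adjusted p = 0.541). Without Dox replicate 1 its difference was 0.12, and without Dox replicate 2 it was -0.68, each with 1 Dox library left. With the replicate block and GC offsets on all 4 libraries, MAD1L1 passed as lower by edgeR at -0.29 (adjusted p = 0.0136).

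**Figure D2:**
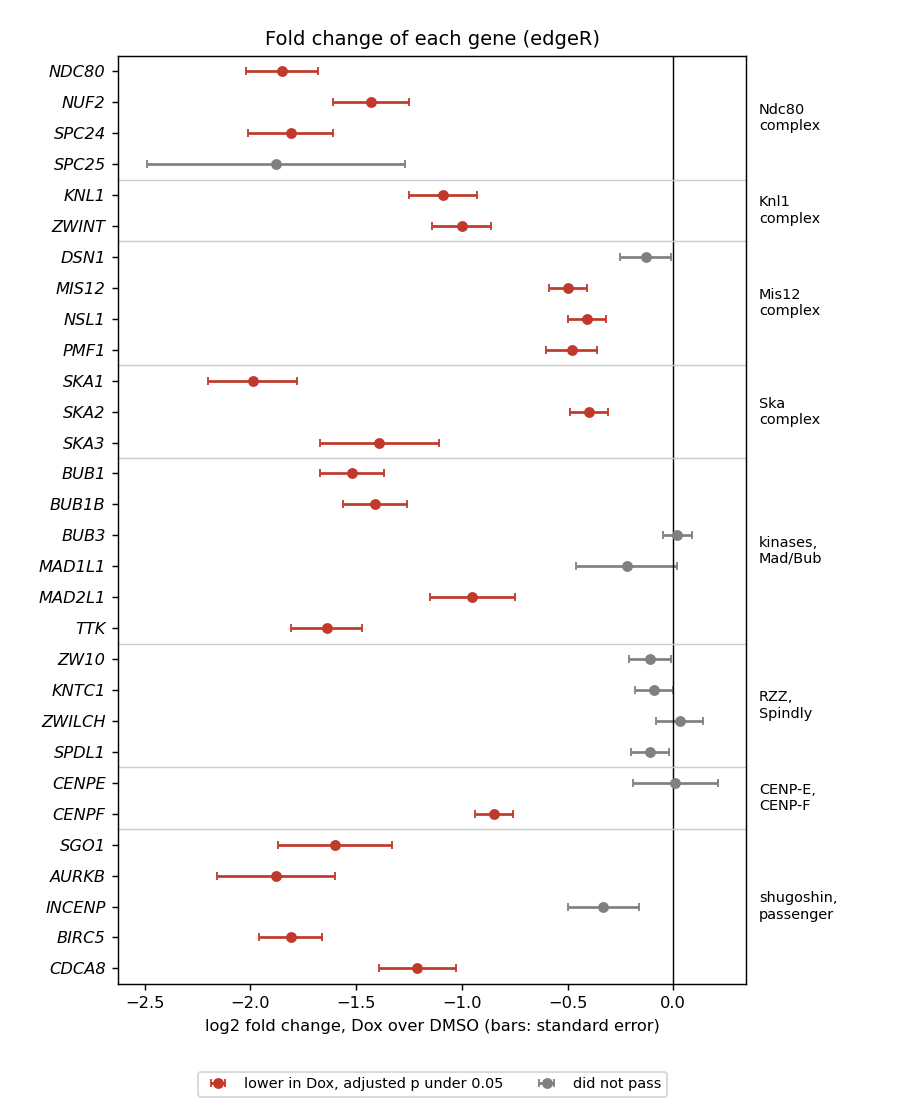
Log2 fold change of each of the 30 genes, Dox over DMSO, with bars for 1 standard error, in red where edgeR's adjusted p was under 0.05 and in grey where it was not. The 4 genes of the RZZ complex and Spindly lay between -0.11 and 0.03, and the lowest point is SKA1 at -1.99.

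The RZZ complex (Rod, Zwilch and ZW10) forms the corona and recruits dynein through Spindly, and 0 of its 4 genes passed the test. By DESeq2 0 of the 4 passed as well. SPDL1, which encodes Spindly, had 937 and 906 counts in Dox libraries, against 924 and 1086 in DMSO libraries, a log2 difference of -0.11 (SE 0.09, edgeR adjusted p = 0.380). ZW10 had 721 and 765 counts in Dox libraries, against 701 and 912 in DMSO libraries, with overlapping groups and a difference of -0.11 (SE 0.10, edgeR adjusted p = 0.476). ZWILCH had 462 and 441 counts in Dox libraries, against 439 and 451 in DMSO libraries, again overlapping, with a difference of 0.03 (SE 0.11, edgeR adjusted p = 0.870). KNTC1, which encodes Rod, had 786 counts in each Dox library, against 788 and 902 in DMSO libraries (-0.09, SE 0.09, edgeR adjusted p = 0.444). A p above the threshold does not show that these levels were equal. With offsets for each library's trend of counts on GC content, SPDL1 and KNTC1 passed as lower by edgeR, both at -0.20. The adjusted p was 0.0291 for SPDL1 (range over alternatives with all 4 libraries 0.0191 to 1.00) and 0.0379 for KNTC1 (range 0.0250 to 1.00). Without Dox replicate 1, a fit that left 1 Dox library, SPDL1 was again at -0.20.

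The large corona proteins divided. CENPF (ENSG00000117724.13, chr1:214603195-214664588), a coiled-coil protein that accumulates in G2, had 443 and 444 counts in Dox libraries, against 768 and 845 in DMSO libraries. It fell by 0.85 on the log2 scale (SE 0.09, edgeR adjusted p = 0.00134). On rescaled TPM its value was -0.89 and did not pass (limma adjusted p = 0.116). CENPE, the kinesin that moves chromosomes to the metaphase plate, had 364 and 258 counts in Dox libraries, against 290 and 333 in DMSO libraries. The Dox libraries lay on both sides of the DMSO libraries, and the difference of 0.01 (SE 0.20) did not pass (edgeR adjusted p = 0.967). The direction of CENPE turned with the library left out: without Dox replicate 1 it was -0.32 and without Dox replicate 2 it was 0.27. Each of these fits left 1 Dox library, so the wide spread of the Dox pair did not enter. Over alternatives with all 4 libraries the adjusted p ran from 0.116 (edgeR with replicate block and GC offsets) to 1.00.

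Shugoshin 1 guards centromeric cohesion, and the passenger complex corrects attachments. Of these 5 genes, 4 fell. BIRC5 (ENSG00000089685.15, chr17:78214186-78225636), which encodes survivin, the subunit that reads phosphorylated histone H3 at the centromere, had 99 and 110 counts in Dox libraries, against 323 and 419 in DMSO libraries. Its mean was 2.37 ± 0.0778 CPM in Dox and 8.34 ± 0.847 CPM in DMSO (SD, n = 2 each), a log2 fold change of -1.81 (SE 0.15), and its edgeR adjusted p of 0.000534 was the smallest of the 30 genes. AURKB, the kinase itself, changed by -1.88 (SE 0.28, edgeR adjusted p = 0.00483), and CDCA8, which encodes borealin, by -1.21 (SE 0.18, edgeR adjusted p = 0.00458). SGO1 had 13 and 16 counts in Dox libraries, against 41 and 48 in DMSO libraries, and changed by -1.60 (SE 0.27, edgeR adjusted p = 0.00725). These 4 genes stood lower in both Dox libraries than in both DMSO libraries.

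INCENP, the scaffold that binds and activates Aurora B, did not pass. It had 233 and 340 counts in Dox libraries, against 332 and 390 in DMSO libraries. By CPM both Dox libraries were lower, with Dox replicate 2 close to the DMSO libraries, and the difference was -0.33 (SE 0.17, edgeR adjusted p = 0.190). Without Dox replicate 1 INCENP was at -0.13 and without Dox replicate 2 at -0.58, each with 1 Dox library left. With the GC offsets it passed by edgeR at -0.37 (adjusted p = 0.0315, within 0.00666 to 1.00 over alternatives with all 4 libraries).

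The balance between partners was read from TPM, a unit that divides by transcript length, as ratios within a library. The summed TPM of the RZZ genes and SPDL1 was 10.9 and 10.1 times that of the Ndc80 genes in Dox libraries, against 3.68 and 4.23 times in DMSO libraries. Summed Ndc80 TPM over summed Mis12 TPM was 0.0995 and 0.0925 in Dox libraries, against 0.225 and 0.200 in DMSO libraries. Both ratios separated the groups: in the Dox libraries RZZ and Spindly transcripts were higher against Ndc80, and Ndc80 transcripts lower against Mis12. The ratios restate the fold changes above from the same libraries and are no separate support for them. BUB3 exceeded its cargo BUB1 by 28.4 and 31.4 times in Dox libraries, against 10.2 and 10.3 times in DMSO libraries. SKA2 exceeded SKA1 by 65.1 and 54.0 times in Dox libraries, against 17.6 and 24.1 times in DMSO libraries. INCENP over BIRC5 was 2.73 and 2.71 in Dox libraries, against 1.08 and 0.664 in DMSO libraries. ZWINT over KNL1 was 2.05 and 2.96 in Dox libraries, against 2.83 and 2.38 in DMSO libraries, with overlapping groups. NDC80 over NUF2, dimer partners that both fell, was 0.567 and 1.57 in Dox libraries, against 1.61 and 1.95 in DMSO libraries. The groups did not overlap, but Dox replicate 2 lay close to DMSO replicate 1. The estimated transcript length of NUF2, by which TPM divides, was 935 and 1753 bases in Dox libraries, against 1465 and 1786 bases in DMSO libraries. The low ratio in Dox replicate 1, where NUF2 had 39 counts, thus follows this length as well as the counts. TPM is listed to 2 decimals, so ratios over genes such as SKA1, with 0.07 and 0.12 TPM in Dox libraries, are coarse.

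**Figure D3:**
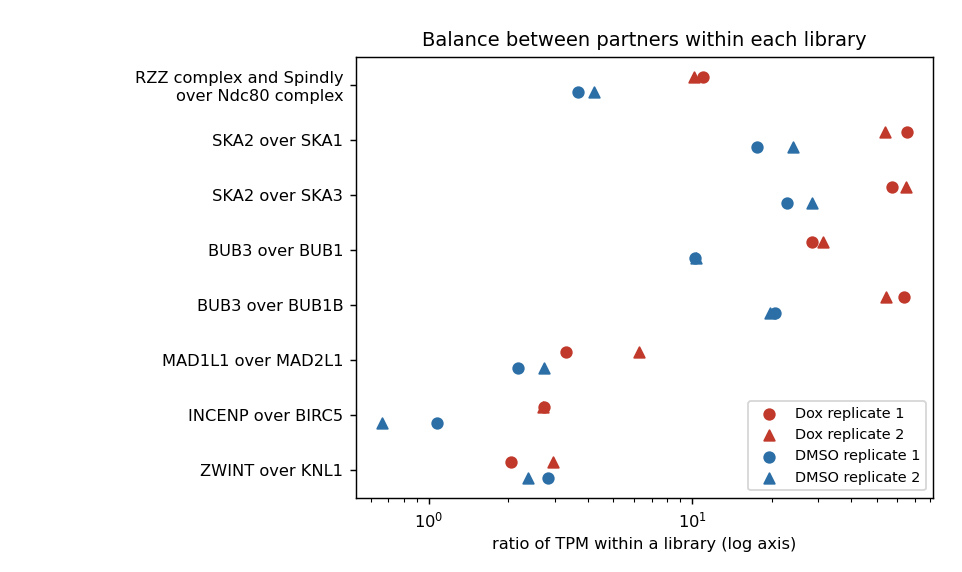
Ratio of TPM between partner genes or summed groups within each library, on a log axis, with Dox libraries in red above DMSO libraries in blue. The 7 upper ratios were higher in both Dox libraries than in both DMSO libraries, and ZWINT over KNL1 overlapped.

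By TPM, BUB3 had the highest level of the 30 genes in every library, at 8.25 and 14.1 TPM in Dox libraries and 9.48 TPM in each DMSO library. SKA2 came next, at 4.56 and 6.48 TPM in Dox libraries and 5.46 and 6.27 TPM in DMSO libraries. At the low end SGO1 had 0.04 and 0.05 TPM in Dox libraries and 0.18 and 0.15 TPM in DMSO libraries. SPC25 had 0.02 and 0.12 TPM in Dox libraries and 0.27 and 0.19 TPM in DMSO libraries. In all, 16 of the 30 genes stayed under 1 TPM in every library. These levels rank genes within a library and are not compared between libraries, since the deposited TPM differed in scale. The median of TPM over each gene's geometric mean across libraries was 0.826 and 1.35 in Dox libraries and 0.940 and 0.967 in DMSO libraries. The short RNAs RN7SL1 and RN7SL2 held 33.0% and 42.3% of TPM in Dox libraries and 43.9% and 43.8% in DMSO libraries. Their part in the scale was not tested.

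Each gene's mean transcript length, weighted by its isoforms, was also listed. The choice of genes by symbol did not use this length, but it comes from the same reads as the counts. This length did not overlap between groups in 13 of the 30 genes, of which 10 were shorter and 3 longer in Dox libraries, beside 30.7% of all tested genes without overlap. The share over all tested genes was not split by direction, so the 10 and the 3 are not read as a trend. SPC24 had 1540 and 1472 bases in Dox libraries, against 1952 and 2128 bases in DMSO libraries. SKA2 had 1399 and 1419 bases in Dox libraries, against 1566 and 1517 bases in DMSO libraries. MAD2L1 was longer, at 2087 and 2292 bases in Dox libraries, against 2084 and 2068 bases in DMSO libraries, with Dox replicate 1 close to DMSO replicate 1. Some gaps were only a few bases wide: PMF1 had 1059 and 1062 bases in Dox libraries, against 1063 and 1067 bases in DMSO libraries. Lengths also moved widely within a group: CENPF had 6588 and 10290 bases in Dox libraries, against 9553 and 5450 bases in DMSO libraries. The estimates rest on few reads in the low genes, and no test was made.

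Library totals were 42880682 and 43429426 expected counts in Dox and 42744729 and 47798920 in DMSO. The Dox libraries differed from each other more than the DMSO libraries did, with a chi-square per degree of freedom of 60.5 for the Dox pair and 2.40 for the DMSO pair. Over 16700 genes the log2 ratio of Dox replicate 1 to Dox replicate 2 followed transcript GC content with a Spearman rho of -0.58, against -0.0158 for the DMSO pair, as a description across genes, which are not independent. Among the 30 genes the same rho was -0.47. Of the 8 genes with over 50% GC, 6 were lower in Dox replicate 1 than in Dox replicate 2 (median log2 ratio -0.26), against 5 of the other 22 (median 0.08). MAD1L1, at 62.1% GC, was lower in Dox replicate 1 by 0.82 on the log2 scale, CENPE, at 34.5% GC, was higher there by 0.58, and INCENP, at 57.7% GC, was lower by 0.46. AURKB, at 56.3% GC, went the other way at 0.70. The part of GC content in the differences between groups was not tested beyond the offsets: with them 24 of the 30 genes were lower and 0 higher, and over all tested genes 4581 were lower and 3274 higher, against 2309 lower and 2764 higher without them.

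**Figure D4:**
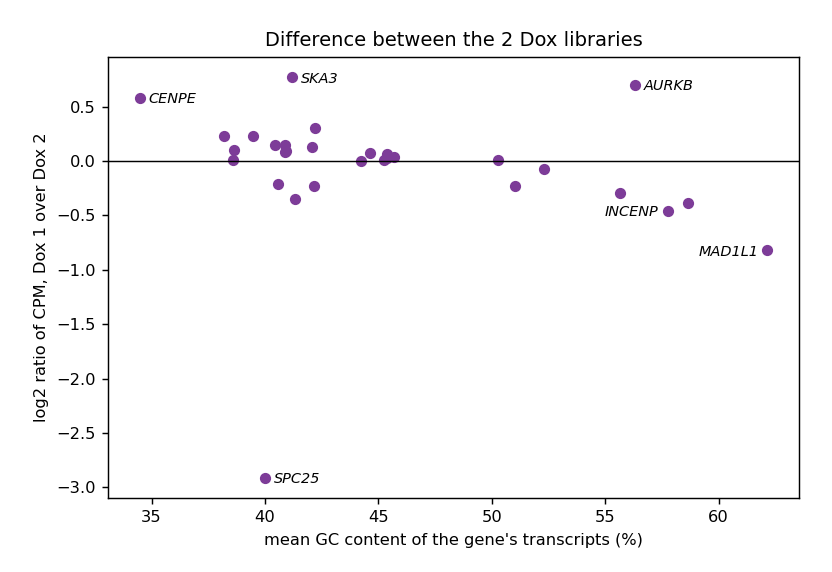
Log2 ratio of CPM between Dox replicate 1 and Dox replicate 2 for the 30 genes (vertical axis) against the mean GC content of their transcripts in percent (horizontal axis), with genes past 0.45 named. MAD1L1 and INCENP, rich in GC, lay at -0.82 and -0.46, CENPE lay at 0.58, and SPC25, with 2 and 16 counts, lay at -2.91.

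Some counts could be shared with a neighbour, since the sources used here do not say whether counting used strand. In GENCODE 29, 8 of the 30 genes share exon bases with another listed gene. PMF1 shares 587 bases (23.3% of its exons) with the readthrough gene PMF1-BGLAP on the same strand, which had 70.2 and 74.7 counts in Dox libraries, against 104 and 82.6 in DMSO libraries. With both summed, the log2 fold change was -0.47 and still passed. SGO1 shares 679 bases (17.7%) with its antisense gene SGO1-AS1, which had 6 counts in each Dox library, against 3 and 1 in DMSO libraries. MIS12 shares 301 bases (9.53%) with the opposite gene DERL2, and ZWILCH shares 158 bases (3.26%) with the ribosomal protein gene RPL4, which had 35510 and 39338 counts in Dox libraries, against 41047 and 47355 in DMSO libraries. BUB1B shares 457 bases with a readthrough gene that had 0 counts in all 4 libraries. SPC24, NUF2 and MAD2L1 share 88, 5 and 44 bases with genes on the other strand. The values of MIS12, PMF1, ZWILCH and SGO1 are uncertain to that extent.

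Genes that work with the kinetochore but are not among the 30 were read from 6 lists of 79 genes in all. Over all tested genes 13.8% were lower and 16.5% were higher, the shares to set beside the counts of each list. Of the 79 genes 28 were lower in Dox libraries, 10 were higher and 41 did not pass (edgeR, adjusted p under 0.05). The share higher was below that of all tested genes and is not read as a trait of these lists. Without DMSO replicate 1 the counts were 20 lower and 2 higher, without DMSO replicate 2 they were 19 and 2, without Dox replicate 1 they were 42 and 14, and without Dox replicate 2 they were 45 and 15. Each of these fits left 1 library in a group, so the spread came from the other group's pair. By limma on log2(TPM + 1), with TPM not scaled between libraries, 5 were lower and 1 was higher. On rescaled TPM 22 were lower and 3 higher. Of 12 checkpoint effectors and anaphase targets, 8 fell, 1 rose and 3 did not pass, with a median log2 fold change of -0.79. CCNA2, the cyclin of S phase and G2, averaged 3.01 ± 0.324 CPM in Dox and 10.3 ± 0.161 CPM in DMSO (SD, n = 2 each), a change of -1.77 (SE 0.13, edgeR adjusted p = 0.000405). CCNB1, the mitotic cyclin whose destruction ends mitosis, changed by -1.25 (SE 0.10, edgeR adjusted p = 0.00045). USP44, a deubiquitinase that holds back the anaphase-promoting complex, rose by 1.12 (SE 0.26, edgeR adjusted p = 0.0220), with 117 and 81 counts in Dox libraries, against 43 and 49 in DMSO libraries.

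The anaphase-promoting complex is the ubiquitin ligase that the checkpoint holds in check. Of its 14 core subunits 4 fell, 2 rose and 8 did not pass, with a median of -0.16. ANAPC16 fell by 0.55 (SE 0.07, edgeR adjusted p = 0.00318) and CDC23 by 0.47 (SE 0.08, edgeR adjusted p = 0.00752). ANAPC13 rose by 0.34 (SE 0.09, edgeR adjusted p = 0.0348) and CDC16 by 0.29 (SE 0.07, edgeR adjusted p = 0.0308). CDC23, ANAPC13 and CDC16 did not pass without either DMSO library: without DMSO replicate 1 the values were -0.53, 0.31 and 0.27, and without DMSO replicate 2 they were -0.44, 0.36 and 0.29.

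Of 16 genes for phosphatases that silence the checkpoint and guards of the centromere, 3 fell, 1 rose and 12 did not pass, with a median of -0.14. SPAG5, which encodes astrin, a kinetochore microtubule protein, fell by 1.14 (SE 0.17, edgeR adjusted p = 0.00494). PPP2R5C and PPP2R5E encode B56 subunits of protein phosphatase 2A. PPP2R5C fell by 0.26 (SE 0.07, edgeR adjusted p = 0.0392; 0.00 on log2(TPM + 1)), and PPP2R5E rose by 0.44 (SE 0.10, edgeR adjusted p = 0.0233). Neither passed without DMSO replicate 1 (-0.28 and 0.47) or without DMSO replicate 2 (-0.26 and 0.39).

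Of 19 genes for dynein and microtubule plus-end partners, 1 fell, 3 rose and 15 did not pass, with a median of -0.06. KIF2C, the microtubule depolymerase MCAK that acts with Aurora B, was the 1 that fell, with 53 and 77 counts in Dox libraries, against 207 and 255 in DMSO libraries (-1.82, SE 0.19, edgeR adjusted p = 0.00135). RANBP2, a nucleoporin that moves to kinetochores in mitosis, rose by 0.44 (SE 0.07, edgeR adjusted p = 0.00676), and DCTN1, the large dynactin subunit, by 0.47 (SE 0.10, edgeR adjusted p = 0.0151). Neither of these 2 genes passed without DMSO replicate 1 (0.43 and 0.49) or without DMSO replicate 2 (0.44 and 0.43).

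Of 7 mitotic kinase and nuclear pore genes, 4 fell, 1 rose and 2 did not pass, with a median of -0.31. CDK1, the kinase of mitotic entry, had 110 and 108 counts in Dox libraries, against 362 and 437 in DMSO libraries (-1.86, SE 0.13, edgeR adjusted p = 0.00035). PLK1, a kinase that acts at the kinetochore, fell by 1.23 (SE 0.18, edgeR adjusted p = 0.00419). TPR, the nuclear basket protein that holds MAD1 and MAD2 in interphase, rose by 0.41 (SE 0.08, edgeR adjusted p = 0.0105), but did not pass without DMSO replicate 1 (0.40) or without DMSO replicate 2 (0.41).

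Of 11 proliferation markers 8 fell, 2 rose and 1 did not pass, and their median of -0.97 equalled that of the 30 genes to 2 decimals. TOP2A, the topoisomerase of condensing chromosomes, fell by 1.40 (SE 0.08, edgeR adjusted p = 0.000198), and RRM2, a ribonucleotide reductase subunit, by 1.29 (SE 0.12, edgeR adjusted p = 0.00076). PCNA, the replication clamp, rose by 0.40 (SE 0.09, edgeR adjusted p = 0.0176), and TYMS, thymidylate synthase, rose by 0.73 (SE 0.11, edgeR adjusted p = 0.00506). PCNA did not pass without DMSO replicate 1 (0.31) or without DMSO replicate 2 (0.48). The part of the share of dividing cells in the kinetochore values was not tested.

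**Figure D5:**
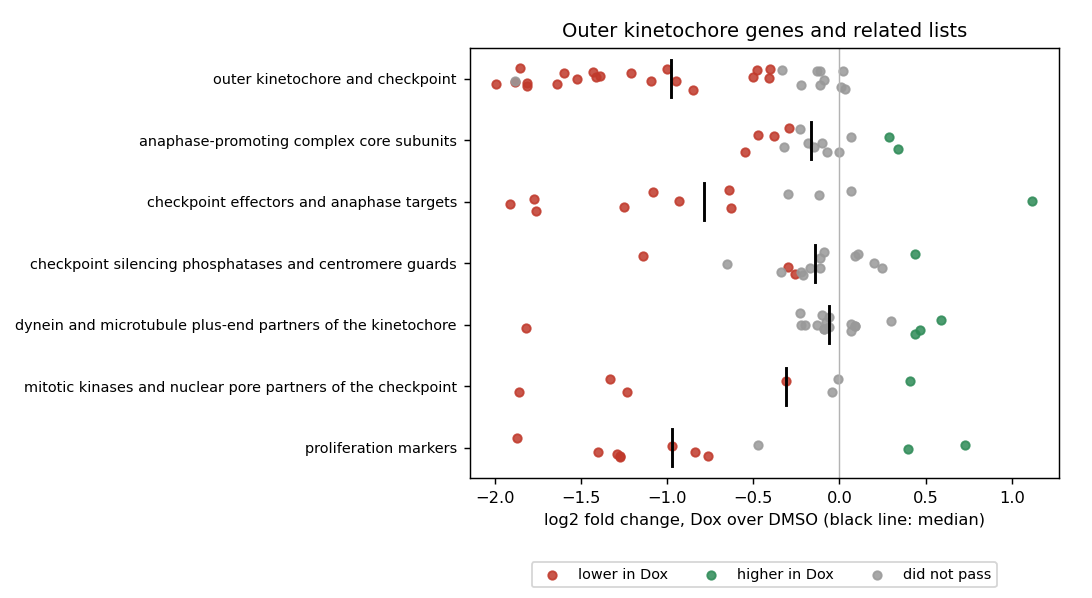
Log2 fold change, Dox over DMSO, of each gene of the outer kinetochore set and of 6 related lists, in red where lower, green where higher and grey where edgeR's test was not passed, with a black line at each median. The medians are -0.97 for the outer kinetochore set and for the proliferation markers, -0.79 for the checkpoint effectors and between -0.31 and -0.06 for the other 4 lists.

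Markers were checked against the labelled cell type. All 10 fibroblast markers were tested, with summed counts of 958833 and 1247463 in Dox libraries, against 1254780 and 1390006 in DMSO libraries, and 3 fell and 4 rose. Of 8 keratinocyte markers, KRT1 and KRT5 were at 0 in all libraries and DSG3 and DSC3 rose, and the list summed to 599 and 564 counts in Dox libraries, against 429 and 477 in DMSO libraries. DSG3 had 39 and 45 counts in Dox libraries and 0 in both DMSO libraries. Of 6 blood markers, CD3E and HBB were at 0 in all libraries and PTPRC rose, with 90 and 83 counts in Dox libraries, against 9 and 11 in DMSO libraries, and the list summed to 109 and 114 counts in Dox libraries, against 21 and 28 in DMSO libraries. The 6 endothelial markers summed to 154 and 186 counts in Dox libraries, against 166 and 223 in DMSO libraries, and the 6 melanocyte markers to 1448 and 1389 counts in Dox libraries, against 1212 and 1418 in DMSO libraries, mostly MITF. In neither list did a gene pass, and 2 genes of each were tested. The part of these markers in the kinetochore values was not tested.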

How the data were processed

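Total RNA of 4 libraries was measured by sequencing. The submitters' processing notes list cutadapt, STAR, RSEM, Picard and hg38. Tool versions, annotation release and strandedness are not stated in these sources. The authors' expected counts (a column of that name per the file headers) are estimated reads per gene from RSEM. The deposited TPM is, per the file headers, RSEM's value divided by transcript length and brought to a fixed sum in each library. The deposited length, per the file headers, is in bases and weighted by isoform.

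Expected counts were rounded. Genes were filtered with edgeR's filterByExpr (minimum count 10, minimum total 15), scaled by TMM and tested with the quasi-likelihood test of edgeR 4.0.16 with group as the only term, and p-values were adjusted by Benjamini-Hochberg over all tested genes (threshold 0.05). CPM values are TMM-scaled. Of the gene identifiers, 99.5% matched GENCODE 29 without version (80.6% with it), which gave 1-based coordinates and GC content, while promoters are RefSeq's. The script was tested on simulated data. Genes named from the related lists were the 2 with the smallest adjusted p in the commoner direction and each that passed in the other. For the 30 genes, counts per library are given for the smallest and the largest adjusted p in each subcomplex and for genes with a stated limit. The 30 genes, the lists and the tests were chosen with earlier results of these data known. Alternatives were DESeq2 1.42.0, other scalings, no filter, limma 3.58.1 on log2(TPM + 1) and log2(TPM + 0.1), a 1.5-fold threshold (glmTreat), the replicate block, GC offsets, voom quality weights, summing with readthrough genes and leaving out each library, and rescaled TPM was added after seeing the data. R 4.3.3 and Python 3.11.15 were used.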

Additional observations from a re-analysis of the deposited data

How the results depend on the processing

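The 20 genes lower in Dox numbered 20 under DESeq2, RLE and upper-quartile factors and sums with readthrough genes, 21 with no filter and with voom weights, 14 at a 1.5-fold threshold, 24 with GC offsets and 15 on rescaled TPM. With the replicate block and GC offsets the lower genes numbered 25, with MAD1L1 among them. On rescaled TPM, NUF2, KNL1, MIS12, NSL1, SKA2 and CENPF did not pass, while SPC25 did. At the 1.5-fold threshold, MIS12, NSL1, PMF1, SKA2, SKA3 and MAD2L1 did not pass. On log2(TPM + 1) the lower genes numbered 9 and on log2(TPM + 0.1) they numbered 6. In both, here and below, TPM was not scaled between libraries. Leaving out 1 library gave 16 to 23 lower and 0 to 1 higher, the 1 being CENPE without Dox replicate 2. The group left with 1 library was assumed to vary like the other, although the Dox pair varied far more than the DMSO pair. Calls without a Dox library thus rest on the narrower DMSO spread, and calls without a DMSO library on the wider Dox spread.

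Of the related genes, 28 lower became 5, 4, 14 and 44 on log2(TPM + 1), log2(TPM + 0.1), at 1.5-fold and with the replicate block and GC offsets, and 19 to 45 with 1 library left out. The 10 higher became 1, 1, 0 and 3 on log2(TPM + 1), log2(TPM + 0.1), at 1.5-fold and on rescaled TPM, and 2 to 15 with 1 library left out. Over all tested genes, lower calls were 198, 198, 480, 4581 and 5042 on log2(TPM + 1), log2(TPM + 0.1), at 1.5-fold, with GC offsets and with block and offsets. Higher calls were 596, 637, 787 and 1770 on log2(TPM + 1), log2(TPM + 0.1), at 1.5-fold and on rescaled TPM. With 1 library left out they ran from 1000 to 5017 lower and from 1368 to 4654 higher. The cause was not tested. The median over all genes shifted to 0.12 with no filter and to 0.13 on log2(TPM + 0.1).

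Sign changes touched PPP2R5C (0.00 on log2(TPM + 1)) and genes that did not pass. On log2(TPM + 1) and log2(TPM + 0.1), MAD1L1 was 0.04 and 0.03, ZW10 0.04 and 0.04, KNTC1 0.11 and 0.16, ZWILCH -0.05 and -0.10, SPDL1 0.05 and 0.06, INCENP 0.08 and 0.13 and CENPE -0.01 and -0.01, and DSN1 was 0.00 on the first. On rescaled TPM, KNTC1 was 0.03, ZWILCH -0.24 and CENPE -0.11. With no filter, BUB3 was -0.01, ZWILCH -0.01 and CENPE -0.02. With GC offsets, BUB3 was -0.04, ZWILCH -0.08 and CENPE -0.22, and with the replicate block added -0.04, -0.08 and -0.23. CENPE was 0.00 with upper-quartile factors and -0.02 with voom weights. With 1 library left out, BUB3 ran from -0.02 to 0.05, MAD1L1 from -0.68 to 0.12, ZWILCH from -0.06 to 0.10 and CENPE from -0.32 to 0.27.

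Replicate numbers 1 and 2 occur in both groups, but no label says what they share, and deviations of same-numbered libraries correlated at 0.0383. With the replicate block, 21 of the 30 genes were lower (SPC25 added) and CENPE was -0.01. SPC25 and SGO1 had the fewest counts of the 30 genes, at 2 to 36 and 13 to 48 a library.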
